A study of Homo sapiens with 16 samples.

Results

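HIF-1α binding sites of A549 lung carcinoma cells were compared with those of HCT116 (colorectal), PC3 (prostate) and T47D (breast) carcinoma cells. A site of a cell line was a stretch of genome covered by overlapping peaks of both of its HIF-1α libraries, with an overlap of at least 1 bp. By this rule A549 had 252 of the 3001 HIF-1α sites found in any of the 4 lines, a share of 8.4%. Sites of all 3 other lines numbered 263, a set that overlaps the A549 sites. Of the 263, 143 had a peak in both A549 HIF-1α lists and 60 had no peak in either. These 60 are called missing sites below. The A549 sites with no peak in any of the 6 HIF-1α lists of the other lines numbered 19 and are called A549-only sites.

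The peak lists came from ChIP-seq, in which DNA bound by a protein is pulled down with an antibody and sequenced, and places where reads gather are listed as peaks. All 4 lines, each an established line grown as a monoculture, had been held in 0.5% oxygen for 16 hours. Chromatin was precipitated with rabbit polyclonal antibodies, PM14 for HIF-1α and PM9 for HIF-2α. Each line had 2 libraries per antibody, numbered replicates 2 and 3 in A549 and HCT116 and replicates 1 and 2 in PC3 and T47D.

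HIF-1 is a pair of proteins, an α subunit that is destroyed when oxygen is plentiful and a β subunit that is always present. In low oxygen the pair binds the core motif RCGTG (ACGTG or GCGTG) and switches on genes for glycolysis, lactate export and oxygen sensing, often from their promoters. HIF-2α pairs with the same β subunit and reads the same motif, but is known for binding further from genes and for its activity in lung, kidney and vessel cells. A549 is a lung adenocarcinoma line that also carries a defect in KEAP1, which keeps the stress factor NRF2 active.

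Sequence around the RCGTG nearest to the centre of a site is shown for the 4 best-ranked missing sites and the missing site at HERC3, a gene of the study's own list of targets, so that they can be set beside sites that A549 did hold. The runs are from GRCh37, 5′ to 3′ on the strand that carries the core, which is in capitals.
TBC1D22A distal: tacagagtgggtACGTGacttccggggtg
TRMU: gggagggaggagACGTGcacaacgccacg
PPFIA4: ctcggctctaggACGTGtcgggctgcacg
RSBN1: agtggaaagggaGCGTGcgcgaagtcacg
HERC3: acacccgtacacACGTGtccgcacacacc

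The TBC1D22A distal run lies at chr22:48027499-48027527 outside protein-coding transcripts, and the run of TRMU at chr22:46731810-46731838 in an untranslated exon. The run of PPFIA4 lies at chr1:202995666-202995694 in an untranslated exon. That of RSBN1 lies at chr1:114355175-114355203, at -91 bp from the nearest start (upstream), and that of HERC3 at chr4:89514387-89514415 in an intron. RCGTG was found somewhere in all 60 missing sites, but also in 98.8% of the whole sites of any other line, so its presence does not set them apart.

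The following runs are from FAM174B, the A549 site next to the highest in rank, and from A549-only sites. Of the 3 best-ranked A549-only sites, 1 had no RCGTG anywhere in it, and the run of CA9 was added after its values were seen because the enzyme is a textbook HIF-1 target.
FAM174B: ctcccgcactagGCGTGgtgcccggagcg
FAAP100: gctggttcatgaACGTGcagtgctgacag
KLHDC4: agctcgtgccttGCGTGcacagagcaggt
CA9: tgtacgggctgtACGTGcattggaaacga

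The FAM174B run lies at chr15:93352343-93352371 in an intron of the gene. FAAP100 is the nearest start to a run at chr17:79526329-79526357 inside a coding exon of NPLOC4, and the KLHDC4 run lies at chr16:87823761-87823789 outside protein-coding transcripts. The CA9 run, at chr9:35673895-35673923, held the single RCGTG of its site and lay at -16 bp from the CA9 start (upstream).

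The lists of the 8 HIF-1α libraries differed in length, which bears on every count below. The A549 lists held 382 peaks (replicate 2) and 629 peaks (replicate 3). The T47D lists held 761 and 711, the PC3 lists 1517 and 3413 and the HCT116 lists 4505 and 4465. The A549 lists were therefore the shortest of the 8. The lists hold no read totals, so depth is unknown, and where a list has no peak there may still be signal under the threshold the authors used. The A549 HIF-2α lists, with 1382 and 1056 peaks, were longer than those of HIF-1α. Within A549, 66.5% of the peaks of replicate 2 but 40.1% of those of replicate 3 overlapped the other replicate. The lists hold no expression values, so the labelled lines could not be checked against marker genes.

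The 10 best-ranked A549 sites were sites of all 4 lines, and 5 were at genes of glucose uptake and glycolysis. Rank was taken as the percentile of a peak's score, the number the authors' peak caller gave it, within its own library. The highest mean rank in A549 was at GPI, an enzyme of upper glycolysis, with scores of 1727 and 2357 in replicates 2 and 3. ENO1, encoding enolase, had scores of 1008 and 2574. SLC16A3, the lactate exporter, had scores of 1010 and 1685. Each of these 3 was among the highest peaks of both A549 lists.

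The remaining 7 of the 10 best-ranked A549 sites were at FAM174B, NARF, GAPDH, KDM3A, ALDOA, ANKRD37 and PDK1. GAPDH and ALDOA are glycolytic enzymes, KDM3A is an oxygen-dependent histone demethylase, and PDK1 keeps pyruvate out of mitochondria. A549 HIF-2α peaks lay over 8 of these 10 sites in both lists, against 54.0% of all 252 A549 sites. Their scores were 976 and 953 at ALDOA and 706 and 625 at GPI. FAM174B and NARF, the next after GPI by rank, had no HIF-2α peak in either A549 list although their HIF-1α scores were 1126 and 1876, and 1071 and 2269. High HIF-1α rank in A549 was therefore found with and without a HIF-2α peak.

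Most A549 sites were also sites of another line. Of the 252, 143 (56.7%) were sites of all 4 lines and 36 were sites of A549 alone, of which 17 had a peak in at least 1 library of another line. A549 shared 79.0% of its sites with HCT116, 73.0% with PC3 and 61.9% with T47D. Read from the other side, 7.99% of HCT116 sites, 17.4% of PC3 sites and 35.5% of T47D sites were A549 sites. The order of the 2 sets of shares was reversed, with the longest lists, those of HCT116, covering most A549 sites and being least covered by them.

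Genes were next read against lists of HIF targets. A gene was counted for a site when it was among the 3 protein-coding genes closest to it, and 3.55% of the 19807 protein-coding genes had an A549 site by this measure. The counts are of genes and not of sites, since 1 site counts for 3 genes and genes of a list can share it. Of 22 genes of glucose uptake and glycolysis, 18 had an A549 site, against 21 in HCT116, 21 in PC3 and 20 in T47D. Of all protein-coding genes, 29.7% had a HIF-1α site in HCT116, 14.0% in PC3 and 6.21% in T47D, so the list counts of the lines stand against different backgrounds. HK1, PFKL and ALDOC had a site in all 3 other lines and a peak of at least 1 A549 list nearby, whereas PFKM had none in any line.

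Of the 47 matched genes of the study's 48 conserved targets, 42 had an A549 site. The study chose that list partly on these samples, so the count is not independent evidence. ANGPTL4, KCTD11 and SCD had a site in all 3 other lines and a peak of at least 1 A549 HIF-1α list nearby, with an A549 HIF-2α site. PDLIM2 had a site in HCT116 alone. HERC3, a ubiquitin ligase, was the remaining gene. It was among the closest genes to a peak of at least 1 A549 HIF-1α list and to an A549 HIF-2α site, although its promoter site, described below, had no A549 peak.

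Histone demethylases gave 5 of 9 genes with an A549 site, mitophagy and mitochondrial genes 5 of 9, and oxygen sensing genes 4 of 11. Collagen modification gave 4 of 6, glycogen metabolism 3 of 7, lactate export and acid-base genes 2 of 7, and angiogenesis and vascular tone 2 of 9. Growth control and stress response gave 10 of 16. VEGFA, the vascular growth factor, had a HIF-1α site in HCT116 alone among the 4 lines. All these shares were above the 3.55% of all genes, and the lists were known HIF targets for the most part.

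Lists chosen for A549 itself gave no HIF-1α site. None of 16 NRF2 targets had one, although 7 had an A549 HIF-2α site, among them HMOX1, GCLC, GCLM, TXNRD1 and SLC7A11, against 8.62% of all protein-coding genes. GCLC and TXNRD1 had a peak of at least 1 A549 HIF-1α list nearby. None of 14 lung epithelial genes, such as the surfactant gene SFTPB, had an A549 HIF-1α site, whereas 4 had an A549 HIF-2α site, among them SFTPB, KRT8 and KRT18. Genes of these lists that lie close together can be counted for the same HIF-2α site. SFTPB and FOXA1 had a peak of at least 1 A549 HIF-1α list nearby, and KRT8 and KRT18 had a HIF-1α site in T47D. With 3.55% of genes as background, a count of 0 among 14 or 16 genes is near what the whole genome gives.

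The missing sites were mostly promoters, as were the 263 sites they were drawn from. Of the 60, 53 (88.3%) spanned the start site of a protein-coding gene and 52 (86.7%) had their centre within 1000 bp of one. Of the 263, 210 (79.85%) spanned a start site and 207 (78.7%) had their centre within 1000 bp of one. As a share, 22.8% of the 263 sites of all 3 other lines were missing (Wilson 95% interval 18.2 to 28.3%, counting error only), whereas 84% of the 2965 sites found in any other line had no A549 HIF-1α peak. Sites common to the other lines were therefore covered more often than the rest. A further 60 of the 263 had a peak in 1 A549 list, 54 of them in replicate 3 and 6 in replicate 2, and 143 had a peak in both. The nearest A549 HIF-1α peak to any missing site was 9476 bp away, at ANKZF1.

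The same count was made for each line, over the sites of the 3 lines other than itself. T47D had no peak at 17 of 169 such sites (10.1%, 6.38 to 15.5%), HCT116 at 4 of 147 (2.72%) and PC3 at 2 of 150 (1.33%). A549 was thus the line most often without a peak, and the order over the 4 lines followed the lengths of their lists except that PC3 had fewer missing sites than HCT116. When the T47D lists were cut to 382 and 629 peaks and both lines were read over the 680 sites of HCT116 and PC3, a comparison chosen after the data were seen, A549 had no peak at 55.0% (51.2 to 58.7%) and T47D at 54.1% (50.4 to 57.8%). A peak in both lists was found at 25% (21.9 to 28.4%) for A549 and at 33.5% (30.1 to 37.2%) for T47D. At equal length the 2 lines were without a peak at a like share of sites, and differed in how many they held in both libraries.

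The number of missing sites depended on list length and on single libraries. With the 382 best peaks of every list, 13 of 135 sites were missing, of which 6 had no peak in the whole A549 lists and 7 had a peak in 1 of them. The 6 were TBC1D22A distal, TRMU, RSBN1, NCOA5, FAM168A and HERC3. Without A549 replicate 3 the count rose from 60 to 114 of the same 263 sites (43.35%, from 22.8%). Leaving out an A549 list cannot lower this count. Leaving out a library of another line drops the need for 2 replicates there, so more sites are read. The count was then 94 of 318 (29.6%) without PC3 replicate 1 and 90 of 316 (28.5%) without T47D replicate 1. Without T47D replicate 2 it was 91 of 307 (29.6%).

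Presence in A549 followed the rank of a site in the other lines. Sites were put in 5 rank bands of 52 or 53 sites by their mean score percentile over the 6 lists of HCT116, PC3 and T47D. In the highest band, 48 of 52 sites had a peak in both A549 lists and 0 were missing. Going down the bands, 3 of 53, 5 of 52, 21 of 53 and 31 of 53 were missing. The median of this mean percentile was 71.3 for missing sites, 84.6 for sites with a peak in 1 A549 list and 91.2 for sites with a peak in both, as a description of the sites and with no test.

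**Figure D1:**
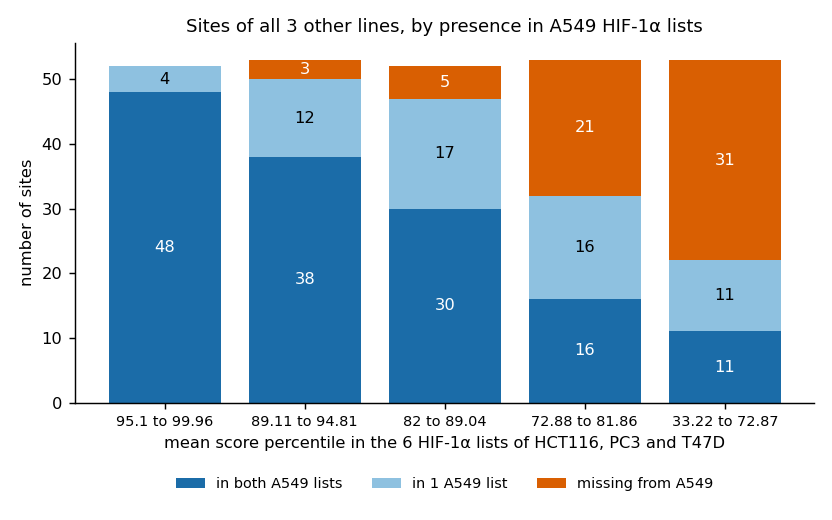
Number of sites of all 3 other lines (y axis, 263 sites) in 5 bands of mean score percentile over the 6 HIF-1α lists of HCT116, PC3 and T47D (x axis, best band at left). Colours give presence in the A549 HIF-1α lists; missing sites number 0 in the best band and 31 of 53 in the lowest.

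The best-ranked missing site was intergenic, at chr22:48026852-48028201 and 857703 bp from TBC1D22A, the nearest protein-coding start. It scored 320 and 217 in the HCT116 libraries, 203 and 269 in those of PC3, and 262 and 202 in those of T47D. Of the 6 HIF-2α lists of the other lines 3 had a peak there, and neither A549 antibody gave a peak in any list. Its score percentile within a library was between 84.0 and 94.0 in the 6 lists. The promoter of TBC1D22A itself, at chr22:47157814-47159307, was a missing site too, with scores from 67.2 in T47D replicate 1 to 415 in HCT116 replicate 2.

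TRMU, a mitochondrial tRNA-modifying enzyme, had its site at chr22:46731052-46732499. It scored 631 and 636 in the HCT116 libraries, 174 and 384 in those of PC3, and 158 and 176 in those of T47D. Its score percentile was 97.6 and 98.2 in HCT116 and from 80.7 to 95.2 in the other 4 lists. No A549 list of either antibody had a peak there.

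PPFIA4 (chr1:202994880-202996591), RSBN1 (chr1:114354385-114355765) and HERC3 (chr4:89513303-89515114) were the genes of the target lists whose single nearby site in the 3 other lines was a missing one, and 0.894% of all protein-coding genes had a missing site among their closest. PPFIA4, a liprin of cell adhesion, scored 524 and 445 in the HCT116 libraries, 107 and 170 in those of PC3, and 310 and 276 in those of T47D. RSBN1, a histone H4 demethylase, scored 374 and 230 in HCT116, 115 and 339 for PC3, and 126 and 228 for T47D. HERC3 scored 344 and 244 in HCT116, 135 and 227 for PC3, and 81.0 and 88.1 for T47D. All 3 were above the lowest score of about 50 in each of the 6 lists, and no A549 HIF-2α peak was found at any of them.

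The other missing sites among the 20 of highest rank were at NCOA5, ANKZF1, PPME1, POLL, FAM168A, NAALADL2, SERGEF, PIGP, WRNIP1, ADPRS, PRR7, EI24, TRIM7 and SPAG4. Several are promoters shared by a pair of genes, such as ANKZF1 with ATG9A, PPME1 with C2CD3, POLL with DPCD and PIGP with TTC3. WRNIP1 had the highest score of the 60 in HCT116 replicate 2, 793 (percentile 98.2), and a percentile of 34.3 in T47D replicate 1. PRR7 and TRIM7 were 6542 bp and 8922 bp from a start and were the others of the 20, with TBC1D22A distal, that spanned none.

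**Figure D2:**
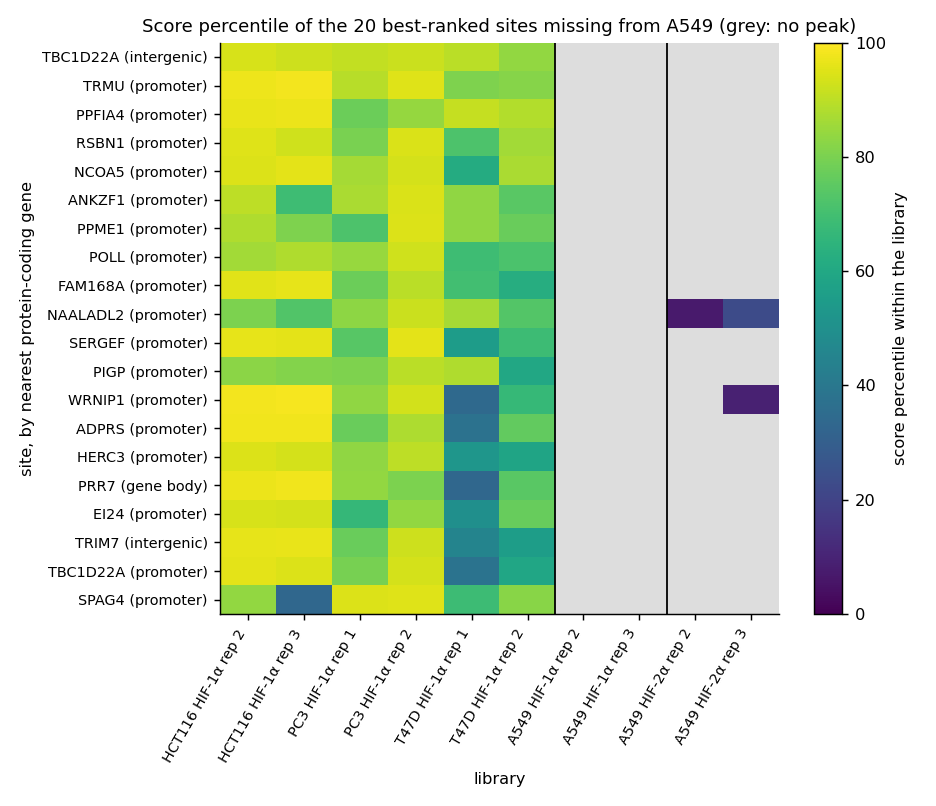
Score percentile within each library (colour, 0 to 100) of the 20 best-ranked missing sites (rows, by nearest protein-coding gene) in the 6 HIF-1α libraries of the other lines and the 4 A549 libraries (columns); grey is no peak. The A549 HIF-1α columns are empty by the rule, and in the A549 HIF-2α columns only NAALADL2 (both lists) and WRNIP1 (replicate 3) have a peak.

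A549 HIF-2α peaks were found at 5 of the 60 missing sites (8.33%, 3.61 to 18.1%). They were found at 117 of the 263 sites of all 3 other lines (44.5%), which include the missing sites. Among the 2965 sites of any other line the share was 11.8%. The share at missing sites was thus near that of sites of any other line and below that of the 263, with whole lists. It was 24.6% without A549 HIF-1α replicate 3, 21.1% with a stricter score and 30.8% with equal numbers of peaks, so it depended on which sites counted as missing. NAALADL2, a peptidase-like protein, had HIF-2α scores of 53.3 and 59.9 in A549, and RNF217, a ubiquitin ligase, had 73.8 and 57.2. WRNIP1, MALT1 and SMYD2 had a HIF-2α peak in replicate 3 alone, with scores of 53.3, 84.9 and 70.2. All were below the medians of these lists, 94.3 and 87.3, with MALT1 close to the latter.

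Sites that A549 HIF-1α did hold had A549 HIF-2α peaks more often. The share was 38.3% (27.1 to 51.0%) of sites with a peak in 1 A549 HIF-1α list and 62.2% (54.1 to 69.8%) of those with a peak in both. A like order was seen in the HIF-2α lists of the other lines, with 33.3%, 51.7% and 68.5% in HCT116 for missing sites, sites in 1 list and sites in both. The PC3 lists gave 16.7%, 33.3% and 56.6%, and the T47D lists 11.7%, 25% and 46.2%. Sites missing from A549 HIF-1α thus had fewer HIF-2α peaks in each of the 4 lines.

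**Figure D3:**
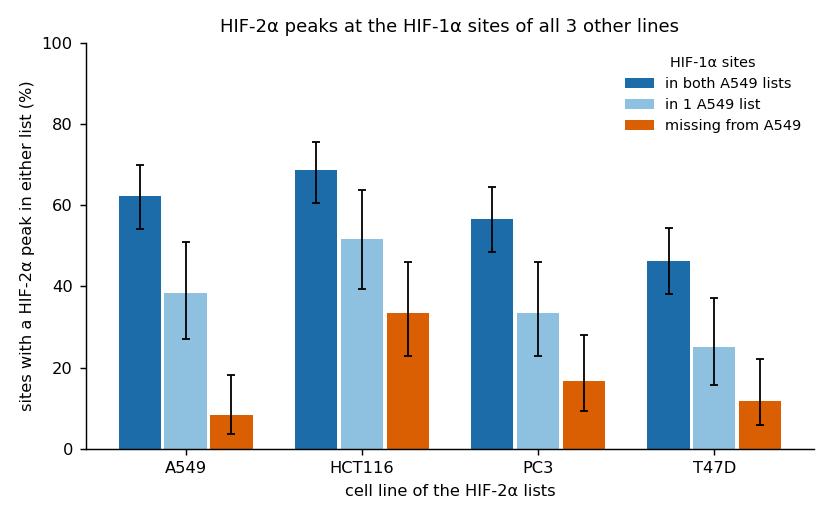
Share of the sites of all 3 other lines with a HIF-2α peak in either list (y axis, %) in the HIF-2α lists of each cell line (x axis), by presence in the A549 HIF-1α lists (colours). Bars start at 0 and whiskers are Wilson 95% intervals for counting error; in A549 the shares are 62.2%, 38.3% and 8.33%.

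The gap was also present among sites nearer in rank. In the lower 2 rank bands, a choice made after the data were seen, A549 HIF-2α peaks lay at 5 of 52 missing sites (9.62%, 4.18 to 20.6%). They lay at 25 of 54 sites with a peak in 1 or both A549 HIF-1α lists (46.3%, 33.7 to 59.4%). The HCT116 HIF-2α lists had a peak at 34.6% of the former and 37.04% of the latter, and those of PC3 at 15.4% and 29.6%. Shares for the T47D HIF-2α lists in these bands are not given here, so the comparison covers only part of the other lines. Within this range of rank the A549 shares were apart by more than their intervals, which measure counting error over sites of the same libraries. The HCT116 shares were close, and the PC3 shares differed in the same direction as those of A549. The median of the mean percentile was still 70.4 for the missing sites and 74.1 for the others. Whether the gap was particular to A549 was not tested. The 60 missing sites had no A549 HIF-1α peak by definition, and the part of list length in this was not tested.

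Missing sites also lay closer to start sites. Their centres were at a median of 88.5 bp from the nearest protein-coding start, against 188 bp for sites with a peak in 1 A549 list and 251 bp for those with a peak in both. The upper quartile was 200 bp, 451 bp and 1648 bp. The median number of CpG dinucleotides in the central 200 bp was 22, 20 and 18. In the lower 2 rank bands the median distance was 91.8 bp for missing sites and 205 bp for the others, so the order was the same there.

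Both strands of the central 200 bp of each site were scanned for motifs. RCGTG was found in 66.7% of missing sites (54.1 to 77.3%), 65.0% of sites with a peak in 1 list and 69.9% of sites with a peak in both, against 42.6% of windows of that length around the starts of protein-coding genes. ACGTG alone was found in 30.0% (19.9 to 42.5%), 48.3% and 49.0% (40.9 to 57.1%), and in 16.3% of start windows. Missing sites held ACGTG less often by point estimate, with intervals that overlapped, and GCGTG at 55.0% and 49.7% in missing sites and sites in both lists.

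Of the sites with a peak in 1 A549 list, the 3 of highest rank in the other lines were at MIX23, KCTD11 and GTF2IRD2B, all with the peak in replicate 3. MIX23 had an A549 score of 231 and scores from 364 in PC3 replicate 1 to 1685 in HCT116 replicate 2. KCTD11, an antagonist of Hedgehog signalling, had an A549 score of 70.6 and from 333 to 663 elsewhere, with A549 HIF-2α scores of 198 and 191. GTF2IRD2B, which has near-identical copies in the genome so that reads there are uncertain, had 205. As score percentiles the 3 stood at 86.0, 41.2 and 84.3 in A549 replicate 3, and at no less than 92.4, 92.3 and 90.4 in the lists of the other lines, which are longer.

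The 19 A549-only sites lay further from start sites than the missing sites. Their median distance to a start was 17175 bp, 3 spanned a start site, and the median CpG count of their central 200 bp was 4. Far placement was not theirs alone. The 90 A549 sites with a peak in another line but not sites of all 4 lines had a median distance of 9698.5 bp and a median CpG count of 10. A549 HIF-2α peaks lay over 13 of the 19 in both lists (68.4%, 46.0 to 84.6%) and over 1 more in 1 list. Of all 252 A549 sites, 136 (54.0%) had HIF-2α peaks in both lists, a share inside that interval. A peak in any of the 6 HIF-2α lists of the other lines was found at 2 of the 19 A549-only sites. Most of the 19 were thus listed for both antibodies in A549, as were most A549 sites, and elsewhere for neither (for HIF-1α by definition). The number rose to 30 of 252 A549 sites without PC3 replicate 2. It was 94 of 382 without A549 replicate 3 and 114 of 629 without A549 replicate 2, as every peak of the remaining A549 list then counts as a site.

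The A549-only site of highest rank, nearest to FAAP100 of the Fanconi anaemia complex, lay at chr17:79525627-79527140. Its HIF-1α scores were 183 and 323, and no HIF-2α list of any line had a peak there. Of the other 9 best-ranked, 3 lay side by side between chr21:9827466 and chr21:9840019, at least 1153092 bp from TPTE, the nearest protein-coding start, with no A549 HIF-2α peak. A site of all 4 lines, at chr21:9825438-9826485, was beside them. These 3 were a single neighbourhood and not separate genes, and whether its sequence is repeated, which would make reads there uncertain, could not be settled from the lists.

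CA9, the acid-regulating carbonic anhydrase, had a site at chr9:35673217-35674386 that spanned its start. A549 HIF-1α scores were 66.0 in replicate 2 and 244 in replicate 3, and HIF-2α scores were 53.2 and 115. No list of either antibody in the other 3 lines had a peak there. Its score percentile was 47.1 and 86.7 in the HIF-1α lists and 7.09 and 63.1 in the HIF-2α lists, the lower value being that of replicate 2 for both antibodies.

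KLHDC4 (chr16:87822994-87824451, 24125 bp from the gene) had HIF-1α scores of 108 and 131 and HIF-2α scores of 1289 and 552, with a single HIF-2α peak elsewhere, of score 53.2 in T47D replicate 2. DUSP5, near a phosphatase gene that restrains ERK, had HIF-1α scores of 91.8 and 99.5 and HIF-2α scores of 466 and 417. SBK2 had HIF-2α scores of 544 and 359 and PDE4D, named for a cAMP phosphodiesterase, 124 and 88.9, whereas DENND3 had no HIF-2α peak. At KLHDC4, DUSP5 and SBK2 the score percentile was higher in both A549 HIF-2α lists than in both HIF-1α lists, and at PDE4D the 2 antibodies overlapped.

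**Figure D4:**
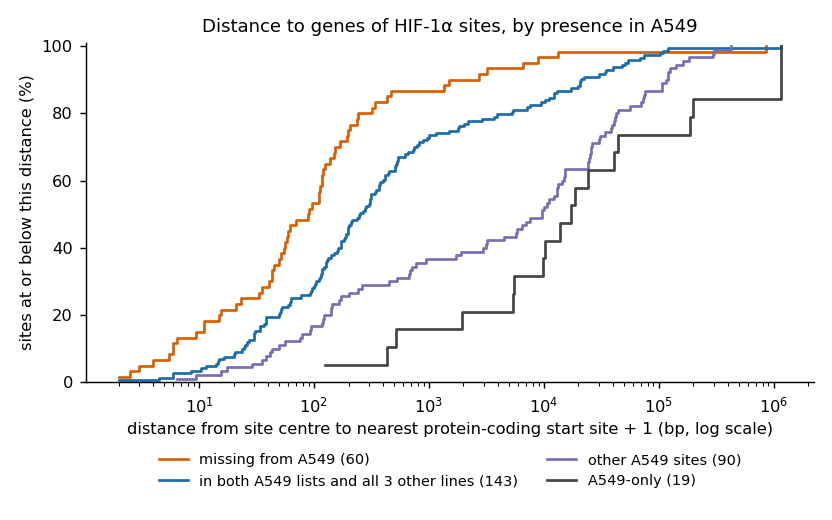
Cumulative share of sites (y axis, %) by distance from site centre to the nearest protein-coding start site plus 1 (x axis, bp, log scale) for missing sites, sites in both A549 lists and all 3 other lines, A549-only sites and other A549 sites, with numbers in the key. Medians are 88.5 bp for missing sites and 17175 bp for A549-only sites.

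Measures of whole libraries were then tested between A549 and the other lines, with 2 libraries against 6. The smallest p that this exact permutation test can give is 0.0357, and the 4 tests were adjusted together. Libraries of a line share their cells, so p-values measure the spread between these libraries. Counted as 4 lines, no p below 0.25 can be reached.

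A549 peaks lay further from start sites. The median distance was 1529 bp and 752 bp in the A549 libraries, 240 bp and 264 bp for HCT116, 419 bp and 299 bp for PC3, and 250 bp and 237 bp for T47D. The A549 libraries were above all 6 others. On the log10(bp + 1) scale the mean was 3.03 ± 0.22 (SD, n = 2) in A549 and 2.45 ± 0.09 (n = 6) in the others, a difference of 0.58 or 3.84-fold (two-sided exact permutation p = 0.0357, adjusted 0.0476).

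Peaks with their centre within 1000 bp of a start made up 47.1% and 51.2% in the A549 libraries and between 59.6% (PC3 replicate 1) and 68.7% (HCT116 replicate 2) in the others. All A549 values were below the others. The mean was 49.2 ± 2.89% (n = 2) against 65.0 ± 3.16% (n = 6), a difference of -15.9 percentage points (two-sided exact permutation p = 0.0357, adjusted 0.0476). With equal numbers of peaks the differences in distance and promoter share were 0.56 and -16.5 with the same p.

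RCGTG in the central 200 bp was found in 67.6% and 70.6% of peaks in the A549 libraries and in 57.6% to 69.2% in the others, so the ranges overlapped. The difference of 4.85 percentage points was not beyond the spread (two-sided exact permutation p = 0.214), and it turned to -3.18 with equal numbers of peaks and to -1.40 over whole peaks.

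The share of HIF-1α peaks that overlapped a HIF-2α peak of the same line was 45.3% and 47.9% in the A549 libraries. It was 14.6% and 14.2% for HCT116, 24.7% and 19.6% for PC3, and 20.2% and 19.7% for T47D. The mean was 46.6 ± 1.81% (n = 2) in A549 and 18.8 ± 3.90% (n = 6) in the others, with no overlap of ranges. The difference was 27.7 percentage points (two-sided exact permutation p = 0.0357, adjusted 0.0476). With the 382 best peaks of each HIF-1α list it was 3.97 (p = 0.786 by the same exact test), since the share then ran from 30.1% in T47D to 63.1% in HCT116, and 45.3% and 57.3% in A549. With the HIF-2α lists cut to equal length instead, the difference was 15.15 with the same p as for whole lists. The call was therefore lost when the HIF-1α lists were cut and held when the HIF-2α lists were.

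**Figure D5:**
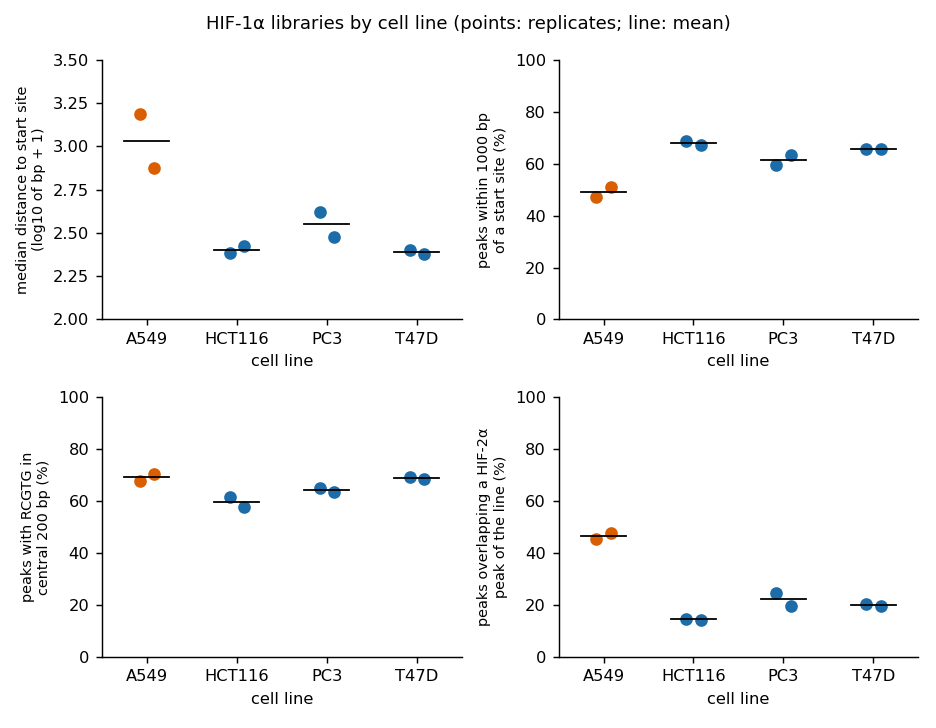
Values of the 8 HIF-1α libraries by cell line (x axis) for median distance to a start site (log10 of bp + 1; axis from 2 to 3.5), percent of peaks at most 1000 bp from a start, percent with RCGTG in the central 200 bp and share overlapping a HIF-2α peak of the line (all %). Points are replicates and horizontal lines are means; A549 stands apart from the other lines in 3 of the 4 panels and overlaps them in the RCGTG panel.

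Among the 143 sites held by all 4 lines, the order of scores was compared. Across sites, which share libraries and are not independent, Spearman's rho of the site order was 0.69 between A549 and HCT116, 0.68 with PC3 and 0.65 with T47D, against 0.84 for HCT116 with PC3, 0.73 for HCT116 with T47D and 0.69 for PC3 with T47D. The promoter of SLC2A1, the glucose transporter GLUT1, was placed 143rd of 143 in A549 and 83rd, 91st and 58th in HCT116, PC3 and T47D. Its upstream site, 3922 bp away, was placed 79th in A549 and 133rd, 135th and 141st in the others. The promoter of HK2, hexokinase 2, was 104th in A549 and 48th, 49th and 45th elsewhere, with score percentiles of 60.0 and 69.8 in the A549 lists against 90.6 to 98.8. These sites were chosen after their values were seen, as examples from glucose uptake. LONP1, ERO1A and MXI1 were also lower in A549, at 132nd, 127th and 130th, with mean places of 48, 60.3 and 66.3 in the other lines. Sites of other targets were higher in A549. SLC2A3, GAPDH and DDIT4 were at 16th, 6th and 49th, with mean places of 35.7, 16.3 and 77.7 in the other lines. The order thus moved in both directions among targets, and these too are examples chosen with their values known.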

How the data were processed

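The authors trimmed reads with Trim Galore 0.3.3, aligned them to GRCh37 with BWA 0.7.5a-r405, removed reads of mapping quality under 15, blacklisted regions and duplicates (SAMtools 0.1.19, bedtools 2.17.0, Picard 2.0.1), and called peaks with MACS in control mode. Pre-immunization serum was the negative control of the immunoprecipitation; the library MACS compared against, its version and the scale of its score are not given in the sources used here. The study later kept peaks that a second caller, T-PIC, also found and that passed a read count filter; the names in the deposited lists are those of MACS and run without gaps, and whether these filters were applied to them is not stated. The unit deposited by the authors is a score per peak, used here to rank or filter peaks. Of 16383 HIF-1α peaks, 18 off chromosomes 1 to 22, X and Y were left out of distances and motifs. Lists hold no read totals, so depth is unknown.

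Analyses ran in Python 3.11.15 (pysam 0.24.0, scipy 1.17.1, numpy 2.4.6, matplotlib 3.10.9) with GENCODE release 44 on GRCh37. Groups were taken from the labels. Peaks sharing 1 bp overlapped, and distances ran from site centre to the nearest protein-coding start. Library measures were compared by two-sided exact permutation over 28 choices of 2 of 8 libraries, adjusted by Benjamini-Hochberg over 4 tests. Functions were tested on simulated data.

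Named by rule were the 10 best-ranked A549 and A549-only sites, the 20 best-ranked missing sites and those with a peak in both A549 HIF-2α lists, list genes whose single nearby site was missing, and 3 sites in 1 A549 list. The members, gene lists and tests were chosen with earlier results of these data known. Alternatives were equal numbers of peaks, a stricter score (76.6, the median over the HIF-1α peaks), peaks of either replicate, 50% reciprocal overlap, gaps of 500 bp, other start sites and windows, lines as units, a replicate block and leaving out each library. A sequence and a gene that the rules would name are not reported here.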

Additional observations from a re-analysis of the deposited data

How the results depend on the processing

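Of 133 alternative values over the 10 results, 93 stayed, 25 counts or shares moved further, 13 tests lost their call and 2 changed sign. Staying meant the same direction and side of the threshold for tests, within 1.5 times for counts, or the Wilson interval for shares. Part of the 93 could not change, so the tally is no measure of robustness. Leaving out a library of another line cannot alter the 252 A549 sites or their HIF-2α share of 54.0%. The RCGTG test could not pass the threshold with lines as units, a replicate block or 1 A549 library. With cell lines as units the differences were 0.58 for distance, -15.9 for promoter share and 27.7 for HIF-2α overlap, with an exact permutation p of 0.25, the smallest possible. A replicate block could be formed for A549 against HCT116, which share the numbers 2 and 3 but no stated pairing, and gave 0.63, -18.7 and 32.2 (exact permutation p = 0.5, the smallest possible). Equal numbers of peaks turned the RCGTG difference to -3.18 and the HIF-2α overlap to 3.97, and whole peaks turned RCGTG to -1.40.

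For sites of A549, A549-only sites, sites of all 4 lines and missing sites, a stricter score gave 144, 8, 92 and 38, and peaks of either replicate gave 757, 189, 291 and 282. Equal numbers of peaks gave 39 A549-only and 13 missing sites. The share of missing sites with an A549 HIF-2α peak became 21.1% with the stricter score and 30.8% with equal numbers, and that of A549 sites with an A549 HIF-2α site became 62.5% with the stricter score and 32.9% with either replicate. Leaving out each library gave differences from 0.43 to 0.74, from -17.9 to -13.8 and from 26.5 to 29.0 for distance, promoter share and HIF-2α overlap; with 1 A549 library left, no p below 0.05 is possible. The counts ran from 252 to 629 A549 sites, 19 to 114 A549-only sites and 61 to 114 missing sites, with HIF-2α shares from 6.67% to 24.6% at missing sites and from 37.5% to 54.0% at A549 sites. Missing sites made up from 23.1% to 43.35% of the sites of all 3 other lines, a set whose size also changed with the library left out. The causes were not tested. Reading T47D at the A549 list lengths and the lower 2 rank bands were added after seeing the data.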

Other observations

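Missing sites were unevenly spread over chromosomes, a pattern noticed in the data and not tested. On chromosome 20, 9 of the 10 sites of all 3 other lines were missing from A549 (NCOA5, SPAG4, RNF24, CRLS1, ROMO1, LSM14B, ZFP64, SOX12 and RALGAPA2), and the site near PEDS1 was in both A549 lists. A549 had 9 HIF-1α sites in all on that chromosome, the one near PEDS1 included. On chromosome 22, 5 of 9 such sites were missing, and on chromosome 8, 0 of 10. Over all chromosomes 60 of 263 (22.8%) were missing, and the chromosomes named here were picked with their counts known.

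The AP-1 motif TGAGTCA, scanned for on both strands of the central 200 bp, was found in 26 of 252 A549 sites (10.3%, Wilson 95% interval 7.14 to 14.7%) and in 0 of 60 missing sites, with a Wilson upper limit of 6.02%. Among the sites of all 3 other lines it was also found in 0 of 60 with a peak in 1 A549 list and in 5 of 143 with a peak in both. It was found in 4.93% of the sites of any other line and in 2.62% of windows around protein-coding starts. Within the A549 sites, by their A549 bounds, the motif was in 6 of 143 sites of all 4 lines and 2 of 19 A549-only sites. The rest lay in the 90 A549 sites with a peak in another line but not sites of all 4. Those 90 had a median distance of 9698.5 bp from a start, against 88.5 bp for missing sites, and the comparison was not matched for distance. AP-1 is a dimer of Jun and Fos proteins that binds enhancers.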
